A study of Mus musculus with 32 samples.

Results

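Adipocyte loss of Bcl6 was examined in the inguinal fat of male mice, the subcutaneous depot of the groin. Bcl6 encodes a zinc-finger transcriptional repressor. The AKO group (adipocyte knockout) held 4 animals with loxP-flanked Bcl6 alleles (Bcl6 fl/fl) and a Cre recombinase under the adiponectin promoter, which is active in adipocytes. The WT group held 4 animals with the same loxP-flanked alleles and no Cre. All 8 were males on a C57BL/6 background, untreated as far as the labels say, and their ages were not given. These 8 of the 32 samples in the series were chosen by tissue, sex and animal number, and the labels number each animal separately. The AKO libraries (replicates 1 to 4) came from animals 3780, 3799, 3800 and 3803 and the WT libraries (replicates 1 to 4) from animals 3782, 3801, 3802 and 3804. No group carried Cre without the floxed alleles, so an effect of the Cre transgene cannot be told apart from an effect of the deletion. Poly(A) RNA of whole tissue was sequenced, so fewer cells of a type and less RNA per cell cannot be told apart either.

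BCL6 recruits corepressor complexes to its target genes and silences them, and it is best known from germinal centre B cells and from liver. Its DNA motif resembles that of the STAT factors, which carry growth hormone and cytokine signals, so that both kinds of factor can meet at one site. White adipocytes store triglyceride, release fatty acids by lipolysis under adrenergic and cAMP control, and respond to insulin, while stromal, vascular and immune cells share the depot with them.

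The deposited count table held 1074 genes, those that the authors' own test had listed out of 12554 tested (8.56%), 570 higher and 504 lower in AKO. Every value below is therefore about a gene that had already been selected on this contrast, and a gene not named as listed was not analysed here. Bcl6 and Adipoq were not among the listed genes, so the genotype labels could not be checked by the targeted gene. Counts within the listed genes ran from 1150530 to 2603509 in the AKO libraries and from 592820 to 1825735 in the WT libraries. The authors' size factors, which set the scale of every normalized count below, averaged 1.36 ± 0.423 in AKO and 0.838 ± 0.332 in WT (SD, n = 4 each). WT replicate 1 was the shallowest library, with a size factor of 0.373. Of the adipocyte marker list, 2 of 12 genes were listed. The lipid droplet coat gene Plin1 ranged from 12421 to 14285 in AKO and 14601 to 20810 in WT, and the triglyceride lipase gene Pnpla2 from 25442 to 32922 in AKO and 38744 to 50315 in WT, so both were abundant in every library.

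Promoter sequences are given for 4 genes on which the account below turns: Mfsd7c, which had the smallest p-value of the listed genes, and Bdnf, Dbp and Cpn2, whose promoters hold a match to the palindrome TTCNNNGAA that STAT and BCL6 motifs share. Each run covers 250 bases before to 50 bases after the gene start from RefSeq (GRCm38.p6), 5′ to 3′ on the gene's own strand, with the palindrome in capitals. In order, the windows lie at chr12:85746289-85746588 (plus strand), chr2:109674450-109674749 (plus strand), chr7:45704997-45705296 (plus strand) and chr16:30267483-30267782 (minus strand).
Mfsd7c: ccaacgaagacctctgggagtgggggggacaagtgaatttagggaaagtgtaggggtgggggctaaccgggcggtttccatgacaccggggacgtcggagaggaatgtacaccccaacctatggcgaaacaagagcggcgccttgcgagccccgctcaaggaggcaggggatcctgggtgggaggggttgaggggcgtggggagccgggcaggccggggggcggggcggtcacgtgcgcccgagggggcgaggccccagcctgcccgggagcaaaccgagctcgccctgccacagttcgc
Bdnf: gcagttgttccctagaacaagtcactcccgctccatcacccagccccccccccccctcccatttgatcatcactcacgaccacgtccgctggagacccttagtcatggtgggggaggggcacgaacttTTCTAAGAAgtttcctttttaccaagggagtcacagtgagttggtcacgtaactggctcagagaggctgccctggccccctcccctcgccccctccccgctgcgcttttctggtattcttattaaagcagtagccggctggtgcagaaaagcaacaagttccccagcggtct
Dbp: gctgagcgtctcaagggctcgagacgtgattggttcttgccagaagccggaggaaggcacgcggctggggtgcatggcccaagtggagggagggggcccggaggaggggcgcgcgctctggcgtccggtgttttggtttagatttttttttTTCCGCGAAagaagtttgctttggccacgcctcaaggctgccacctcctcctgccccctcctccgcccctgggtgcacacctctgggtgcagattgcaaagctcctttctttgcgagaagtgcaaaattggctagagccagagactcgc
Cpn2: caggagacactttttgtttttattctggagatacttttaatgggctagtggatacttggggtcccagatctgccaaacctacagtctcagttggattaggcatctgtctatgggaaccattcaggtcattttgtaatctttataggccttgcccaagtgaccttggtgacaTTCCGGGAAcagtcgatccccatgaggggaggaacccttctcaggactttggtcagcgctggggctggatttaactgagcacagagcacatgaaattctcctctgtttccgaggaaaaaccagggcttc
The palindrome reads the same on both strands, and 8.47% of 27025 promoters of this length hold it. Of the 255 genes named under the rules of this account, 201 had a promoter entry, and 11 of those held it. The window of Mfsd7c (RefSeq name Flvcr2) held none. The match begins 122 bases before the gene start in Bdnf, 99 before it in Dbp and 79 before it in Cpn2. Bdnf rose, and Dbp and Cpn2 fell, as described below. A match is a string of letters in a window and not a binding site, and no binding data were used here.

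The edgeR quasi-likelihood test could be run on the 1074 listed genes only. It used the authors' size factors and a Benjamini-Hochberg adjusted p under 0.05 over the 12554 genes the authors tested. By this test 366 genes were higher in AKO than in WT and 285 were lower, together 651. As shares of the 12554 these are 2.92%, 2.27% and 5.19%, with every unlisted gene counted as not called. A gene said below to have risen or fallen passed that test. For the gene lists below, the shares of all tested genes to set beside a count are 8.56% listed, 2.92% higher and 2.27% lower. A list's size counts its genes whether or not the authors tested them, and how many were tested is not known. A share of a list may thus be too low beside them. Log2 folds are AKO over WT from that fit, given with their standard errors. Changes were mostly modest: 182 of the 366 rises and 177 of the 285 falls were under 1.5-fold. More than 2-fold changes numbered 81 rises and 38 falls, and more than 4-fold changes 24 rises and 9 falls. The 4 AKO libraries did not overlap the 4 WT libraries in 975 of the 1074 listed genes (90.8%), a share that the authors' selection of the genes fixes in part. Under a median-of-ratios scaling over the listed genes alone, 257 rises and 485 falls were called, so the balance between rises and falls depends on the scaling. Without AKO replicate 2, AKO replicate 3 or WT replicate 4 the calls numbered 218 rises and 132 falls, 219 and 142, and 244 and 160.

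**Figure D1:**
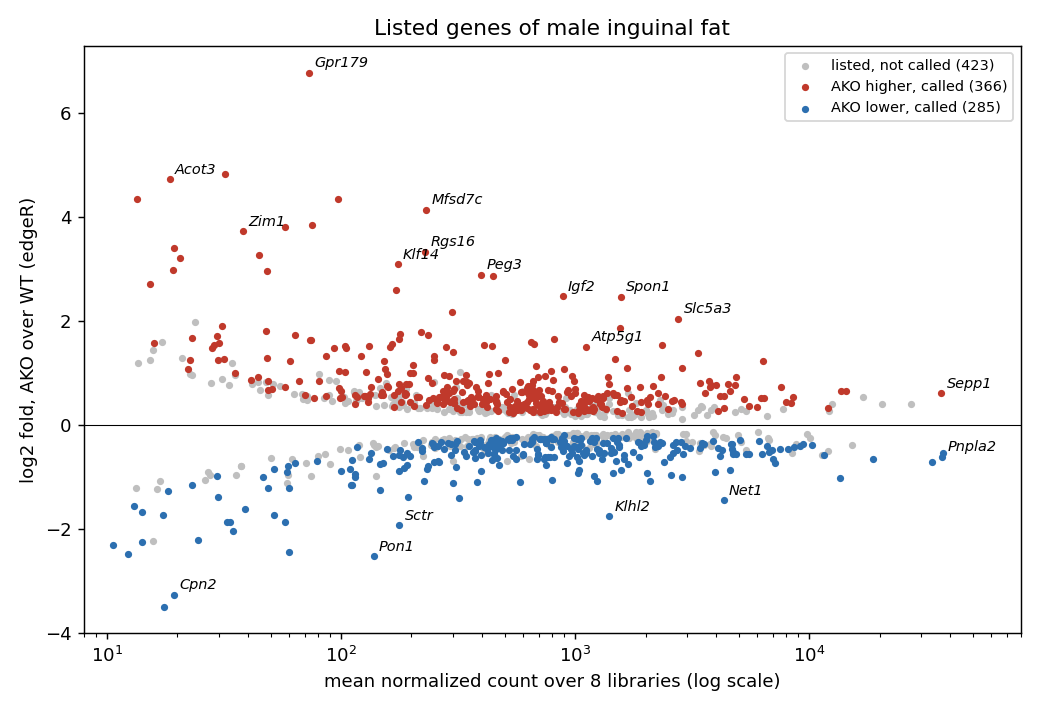
Log2 fold of AKO over WT from edgeR (vertical axis) against the mean normalized count over the 8 libraries (horizontal log axis) for the 1074 listed genes. Red points are the 366 genes called higher, blue points the 285 called lower and grey points the 423 listed genes not called, and the band without points around 0 reflects that unlisted genes are not held; the heights of genes with almost no WT reads, such as Gpr179 and Acot3, depend on the prior count of the fit.

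Among genes that averaged 100 or more normalized counts with no overlap between groups, Mfsd7c, Rgs16, Klf14, Peg3 and Nt5e had the largest rises. Mfsd7c (chromosome 12, plus strand), a membrane transporter gene of the major facilitator superfamily linked to haem and choline transport, had normalized counts of 448, 448, 419 and 434 in AKO, against 26.8, 28.4, 25.9 and 18.8 in WT. The 4 AKO libraries lay within a narrow range far above all WT libraries, a 17.6-fold difference (log2 fold 4.14 ± 0.12, adjusted p = 3.42e-08). Rgs16 encodes a protein that speeds GTP hydrolysis by G-alpha subunits and so ends their signal, and it had 290.0, 414, 453 and 505 in AKO, against 37.6, 45.8, 29.3 and 52.0 in WT. It rose 10.1-fold (adjusted p = 1.53e-05), with AKO replicate 1 the lowest of its group. Nt5e encodes CD73, the surface enzyme that makes adenosine from AMP. Its normalized counts were 824, 845, 803 and 655 in AKO, against 137, 90.6, 101 and 113 in WT, without overlap, a log2 fold of 2.87 ± 0.12 (adjusted p = 1.03e-06). Srgap3, a Rac GTPase-activating protein of the Slit-Robo pathway, averaged 297 ± 45.2 in AKO and 47.5 ± 11.1 in WT (SD, n = 4 each; log2 fold 2.61 ± 0.17).

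Among genes of matrix, secretion and organelles, the matrix glycoprotein gene Spon1 had 2557, 2715, 2656 and 2701 in AKO, against 483, 388, 560.3 and 488 in WT. Its AKO libraries differed from each other by far less than from WT (log2 fold 2.47 ± 0.10, adjusted p = 6.00e-07). Fam134b, a receptor for autophagy of the endoplasmic reticulum, had 624, 456, 450.1 and 406 in AKO, against 118, 131, 62.1 and 126 in WT, also without overlap (log2 fold 2.18 ± 0.22). St3gal6, a sialyltransferase of the Golgi, had 2487, 2167, 2240.0 and 2838 in AKO, against 695, 643, 655 and 689 in WT, a log2 fold of 1.86 ± 0.09 (adjusted p = 1.73e-06). Part of the St3gal6 exons overlaps Dcbld2 in the annotation, so that reads of the pair may be mixed. Nipsnap1, a mitochondrial protein linked to mitophagy, averaged 339 ± 44.0 in AKO and 98.8 ± 6.97 in WT (SD, n = 4 each; log2 fold 1.78 ± 0.12). Atp5g1 encodes the c-ring subunit of ATP synthase and had 1888, 1509.7, 1653 and 1581 in AKO, against 542, 602, 622 and 553 in WT, a log2 fold of 1.51 ± 0.08 (adjusted p = 3.86e-06). Of 186 annotated genes of the respiratory chain and mitochondrial translation, 3 rose (Atp5g1, Mrps6 and Mrpl45) and none fell. How many of the 186 were tested is not known, so that share is not set against the 2.92% of all tested genes.

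**Figure D2:**
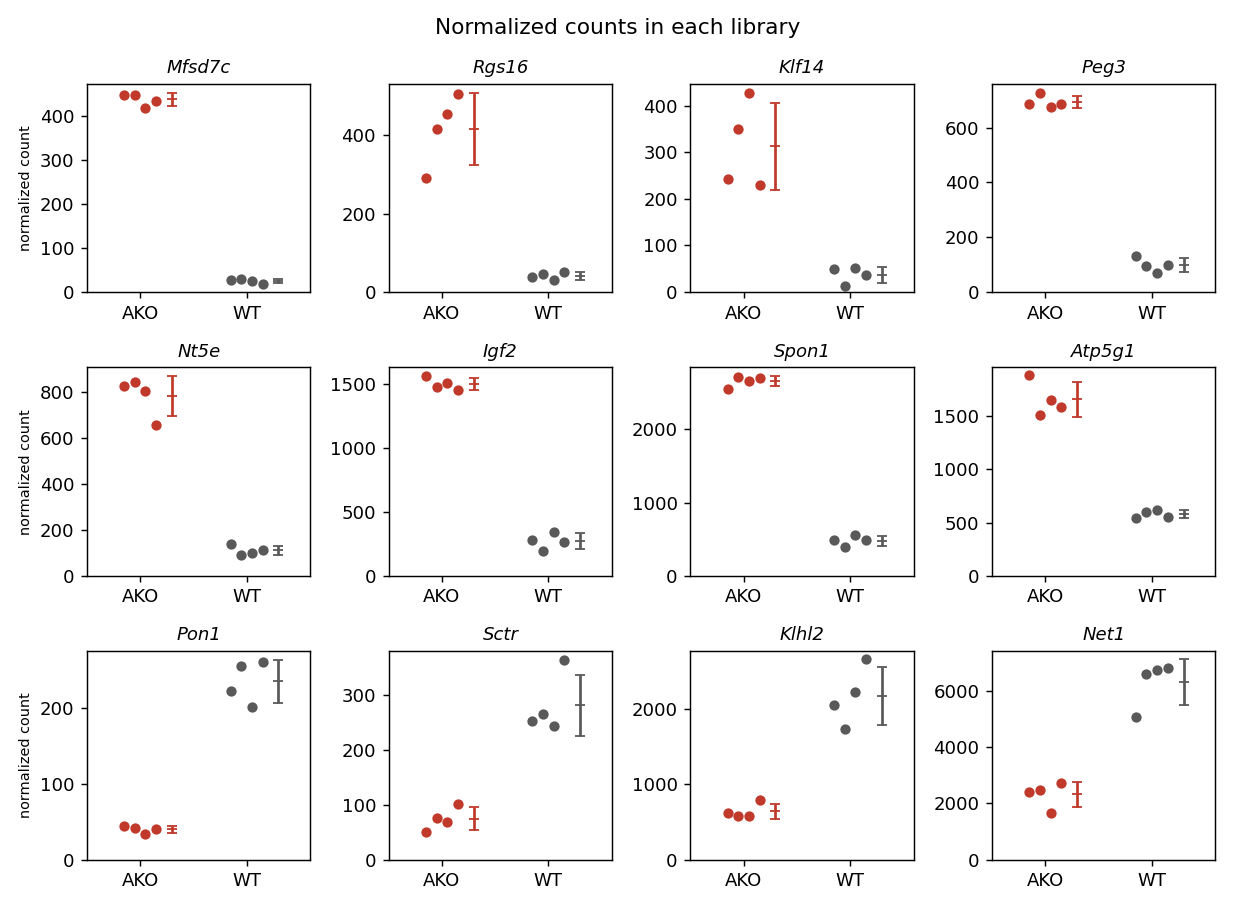
Normalized count (vertical axes, each from 0) of 12 genes in each of the 4 AKO libraries (left of each panel) and 4 WT libraries (right), replicates 1 to 4 from left to right within a group. Bars mark the mean and its SD. In all 12 genes every AKO library lies on one side of every WT library, as for Mfsd7c at 419 to 448 in AKO and 18.8 to 28.4 in WT. Most of the 12 were chosen by a rule that required this, and 90.8% of the 1074 listed genes show it.

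Slc5a3, the sodium-coupled importer of the osmolyte myo-inositol, had 3985, 4131, 5516 and 4168 in AKO, against 1101, 746, 1202 and 1259 in WT. AKO replicate 3 stood above the other AKO libraries, and all 4 exceeded every WT library (log2 fold 2.05 ± 0.16, adjusted p = 6.30e-05). Mrps6, whose exons overlap those of Slc5a3 on the same strand of chromosome 16, also had its highest AKO value in replicate 3 and its lowest WT value in replicate 2, with 2008, 1979, 2565 and 1841 in AKO, against 835, 634, 1092 and 915 in WT, so its own rise is uncertain. Slc2a13, the proton-coupled myo-inositol transporter, fell: it had 109.7, 100.4, 119.8 and 103 in AKO, against 258, 202, 378 and 272 in WT, without overlap (log2 fold -1.38 ± 0.18, adjusted p = 0.00134). The 2 myo-inositol transporters thus moved in opposite directions.

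In several genes almost no WT reads were counted. Gpr179, an orphan receptor known from retinal bipolar cells, had 762 raw reads over the 4 AKO libraries and 4 over the 4 WT libraries. Its normalized counts were 129, 147, 182 and 122 in AKO, against 2.68, 2.18, 0.862 and 0 in WT. Acot3, a peroxisomal acyl-CoA thioesterase, had 190 raw reads in AKO and 4 in WT, 3 of them in WT replicate 1. Snai3, a Snail-family zinc-finger gene, had 144 and 4, and the unnamed transcript Gm20125 had 345 and 7. Cacna1e, a voltage-gated calcium channel gene, had 196 raw reads in AKO and 11 in WT, 8 of the 11 in WT replicate 3. All 5 passed the test (adjusted p = 3.86e-06, 0.00122, 0.000921, 2.51e-05 and 0.0076). Their folds are not given, as WT counts of this size do not set one.

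By the same criteria Pon1, Sctr, Klhl2 and Net1 led the falls. Pon1, an esterase carried on high-density lipoprotein, had 45.1, 41.9, 34.2 and 40.1 in AKO, against 223, 256, 202 and 261 in WT, the deepest fall of any gene that averaged 100 or more normalized counts and whose groups did not overlap (log2 fold -2.52 ± 0.13, adjusted p = 3.86e-06). Sctr, the receptor of the gut hormone secretin, which is coupled to cAMP, had 50.9, 76.3, 68.4 and 101 in AKO, against 252, 265, 243 and 363 in WT (log2 fold -1.92 ± 0.20, adjusted p = 0.000416). Klhl2, an adaptor that brings substrates to a cullin ubiquitin ligase, had 619, 579, 584 and 788 in AKO, against 2048, 1732, 2224 and 2652 in WT, a log2 fold of -1.75 ± 0.14 (adjusted p = 5.55e-05). Net1, an exchange factor that activates RhoA, had 2409, 2459, 1673 and 2726 in AKO, against 5082, 6585, 6749.6 and 6818 in WT, with WT replicate 1 below the other WT libraries and AKO replicate 3 the lowest of all (log2 fold -1.44 ± 0.15, adjusted p = 0.000337). No AKO library overlapped a WT library in these 4 genes, which the criteria had required.

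Further falls were spread over unlike functions. Rhou, an atypical small GTPase gene, averaged 240.5 ± 59.4 in AKO and 518 ± 91.0 in WT (SD, n = 4 each; log2 fold -1.09 ± 0.17). Kctd15, a BTB-domain gene linked to body mass in human genetics, had 193, 195, 180.3 and 187 in AKO, against 427, 417, 430.1 and 371 in WT (log2 fold -1.12 ± 0.08, adjusted p = 1.71e-05). Cdsn, which encodes the adhesive protein corneodesmosin of skin, had 788, 666, 923 and 829.9 in AKO, against 1734, 1185, 1846 and 2002 in WT (log2 fold -1.08 ± 0.15). Lrp3, a receptor of the low-density lipoprotein receptor family, had 169, 176, 128 and 221 in AKO, against 526, 467, 419.8 and 460.3 in WT and fell (log2 fold -1.40 ± 0.14). Its chromosome 7 neighbour Slc7a10, a transporter of small neutral amino acids on adipocytes, had 6995, 5689, 5917 and 6918 in AKO, against 3484, 2975, 3889 and 3099 in WT and rose (log2 fold 0.92 ± 0.10). The exons of this pair overlap on opposite strands, and since the strand setting of the counts is not given in the sources used here, their reads cannot be told apart for certain. Poln, a DNA polymerase gene, ranged from 47.6 to 94.1 in AKO and 97.1 to 215 in WT (log2 fold -1.16 ± 0.26), and its call was lost without AKO replicate 2, 3 or 4 or WT replicate 1, 3 or 4.

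Ranked by the difference in mean normalized count, Sepp1 and Nid1 were among the largest rises and Trf, C4b, Apoe and Ces1d among the largest falls. Sepp1, the plasma selenium carrier selenoprotein P, had 44537, 49480, 44503 and 39358 in AKO, against 26611, 34683, 30061 and 24802 in WT (log2 fold 0.61 ± 0.13, adjusted p = 0.0203). Nid1, the basement membrane linker nidogen, had 17749, 17430, 17064 and 14622 in AKO, against 12343, 8824, 11093 and 10335 in WT, and Smoc1, a calcium-binding matricellular protein, had 8914, 8551, 9320.4 and 8813 in AKO, against 4156, 2827, 4387 and 3761 in WT. Both rose without overlap (log2 fold 0.65 ± 0.11 and 1.24 ± 0.12). Mfge8, a bridging protein for the uptake of dying cells, ranged from 6808 to 10610 in AKO and 5087 to 6161 in WT, with AKO replicate 4 the lowest of its group (log2 fold 0.74 ± 0.13). Lower in AKO were the iron carrier gene Trf, at 21695 to 28383 in AKO and 33805 to 54424 in WT, and the complement gene C4b, at 6724 to 11005 in AKO and 14821 to 22159 in WT (log2 fold -0.71 ± 0.15 and -1.02 ± 0.19). The lipoprotein gene Apoe ranged from 25944 to 35264 in AKO and 39316 to 48859 in WT, and the carboxylesterase gene Ces1d, a lipid-droplet hydrolase of adipocytes, from 13420 to 15410 in AKO and 19722 to 25368 in WT (log2 fold -0.53 ± 0.12 and -0.64 ± 0.10). The calls of Sepp1 (without AKO replicate 1, 2 or 3 or WT replicate 1 or 4), Trf (without AKO replicate 1, 2 or 3) and Apoe (without any one of 6 libraries) were lost in those fits. Sepp1 exons overlap those of Ccdc152.

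Imprinted genes, which are expressed from 1 parental allele and control fetal growth, moved in 1 direction. Of 41 imprinted genes on the list, 9 were listed by the authors and all 9 rose, where 2.92% of tested genes rose. They kept their calls in each fit without 1 library, under each scaling and with replicates paired. Peg3, a paternally expressed zinc-finger gene, had 686, 728, 676 and 686 in AKO, against 132, 93.8, 69.8 and 99.6 in WT (log2 fold 2.89 ± 0.13, adjusted p = 1.27e-06). Its neighbour Zim1 on chromosome 7 had 79.7, 76.9, 69.8 and 60.8 in AKO, against 0, 5.46, 4.31 and 8.85 in WT (log2 fold 3.73 ± 0.32). Klf14, a maternally expressed Kruppel-like factor whose human locus is linked to fat depot and insulin traits, had 242, 350.0, 426 and 230.4 in AKO, against 48.3, 13.1, 50.9 and 35.4 in WT, a wider spread within AKO than Peg3 (log2 fold 3.10 ± 0.32). Peg10, a gene derived from a retrotransposon, had 169, 325, 293 and 193 in AKO, against 94.0, 121, 66.4 and 56.4 in WT (log2 fold 1.56 ± 0.28). The MAGE-family gene Ndn ranged from 1037 to 1602 in AKO and 649.5 to 856 in WT, with WT replicate 3 above the other WT libraries (log2 fold 0.84 ± 0.14). Plagl1, a zinc-finger gene that acts on other imprinted genes in mouse, ranged from 788 to 1019 in AKO and 434 to 654 in WT and Nap1l5 from 167 to 207 in AKO and 84.0 to 124 in WT (log2 fold 0.67 ± 0.13 and 0.88 ± 0.13). The list was written with results of these data known, so its count is a description.

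The 9 include Igf2, the growth factor of fetal life that signals through the type 1 IGF receptor. Igf2 had 1563, 1476, 1509.5 and 1456 in AKO, against 279, 192, 345 and 262 in WT, with AKO libraries within a narrow band (log2 fold 2.47 ± 0.14, adjusted p = 3.94e-06). Part of its exons overlaps Gm49394 on the same strand. Grb10, an imprinted adaptor that restrains insulin and IGF receptor signalling, rose as well, at 1460.5, 1649.7, 1546 and 1544 in AKO, against 1052, 1009, 1217 and 1010.3 in WT (log2 fold 0.53 ± 0.07, adjusted p = 0.00227). On the growth hormone and STAT5 list, 4 of 23 genes were listed and all 4 rose: Igf2, Grb10, Socs2 and Igfbp4. Among all tested genes 8.56% were listed and 2.92% rose, and Igf2 and Grb10 are also counted among the 9 imprinted genes. Socs2, a feedback inhibitor of growth hormone signalling and a known STAT5 target in liver, had 865, 691, 495 and 572 in AKO, against 215, 277, 183 and 246 in WT (log2 fold 1.52 ± 0.18, adjusted p = 0.000969). Igfbp4, a binding protein that sequesters IGFs, ranged from 12348 to 14464 in AKO and 10079 to 11401 in WT, and its call was lost in every fit without 1 library.

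Of 83 growth factors and growth factor receptors, 11 were listed, 9 rose and none fell, where 2.92% of tested genes rose. Bdnf, the ligand of the TrkB receptor, had 42.5, 36.7, 32.9 and 30.0 in AKO, against 10.7, 5.46, 17.2 and 9.96 in WT (log2 fold 1.67 ± 0.31, adjusted p = 0.0111), and Ntrk2, which encodes TrkB, had 6372, 6059.8, 6766 and 5519 in AKO, against 4424, 3685, 4879.9 and 4419.5 in WT (log2 fold 0.51 ± 0.10, adjusted p = 0.0138). Ligand and receptor thus both rose, without overlap between groups in either. Met, the hepatocyte growth factor receptor, ranged from 1046 to 1189 in AKO and 619.7 to 891 in WT (log2 fold 0.56 ± 0.10), and Angpt1, a ligand that stabilises vessels, from 668 to 842 in AKO and 413 to 578 in WT (log2 fold 0.58 ± 0.12). Nrp1, Gas6, Ephb4 and Cyr61 rose with log2 folds of 0.27, 0.79, 0.35 and 0.72. Efnb1 (adjusted p = 0.0588) and Csf1 (adjusted p = 0.0727) did not pass the test. The number called fell to 5 without AKO replicate 2, 3 or 4.

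G-protein-coupled receptors changed in both directions. Of 93 on the list, 10 were listed, 6 rose and 4 fell, where 8.56% of tested genes were listed, 2.92% rose and 2.27% fell. In the fits without 1 library the rises numbered 4 to 6, and only 2 fell without AKO replicate 3 or WT replicate 3. Besides Gpr179 and Sctr, Tshr, the thyrotropin receptor, which stimulates lipolysis through cAMP, had 1714, 1715, 2068 and 1578 in AKO, against 964, 885, 1096 and 1152 in WT (log2 fold 0.78 ± 0.10, adjusted p = 0.00161). Mc2r, the corticotropin receptor that also raises cAMP in mouse adipocytes, had 496, 620.3, 719 and 569 in AKO, against 373, 379, 439 and 349 in WT (log2 fold 0.63 ± 0.12). Lpar4, a receptor for lysophosphatidic acid, ranged from 172 to 279 in AKO and 80.7 to 99.3 in WT (log2 fold 1.22 ± 0.16). Adora1, the adenosine A1 receptor, which inhibits adenylyl cyclase and lipolysis, had 1441, 1214, 1080.5 and 1281 in AKO, against 2633, 1871, 2062 and 1864 in WT (log2 fold -0.74 ± 0.12, adjusted p = 0.00568). It fell while Nt5e, whose product makes its ligand, rose. The beta-1 adrenergic receptor gene Adrb1 fell (log2 fold -0.70 ± 0.17), a call lost without any one of 6 libraries.

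Downstream of these receptors, 9 of 76 genes of cAMP, cGMP and G-protein control were listed, 6 rose and 3 fell. By comparison, 8.56% of tested genes were listed, 2.92% rose and 2.27% fell. The adenylyl cyclase genes split: Adcy3 had 1336, 1136, 994 and 1023 in AKO, against 905, 646, 628 and 759 in WT and Adcy5 had 947, 1306, 1087 and 1254 in AKO, against 2094, 1594, 1551 and 2174 in WT. Adcy3 rose (log2 fold 0.63 ± 0.13) and Adcy5 fell (log2 fold -0.68 ± 0.13, lost without AKO replicate 3). Regulators of G-protein signalling split too, with Rgs16 higher, Rgs2 lower at 415 to 628 in AKO and 756 to 1420.5 in WT (log2 fold -1.06 ± 0.18) and Rgs7 lower at 219.8 to 249 in AKO and 311 to 377 in WT (log2 fold -0.58 ± 0.08). Akap12, a scaffold for protein kinase A, ranged from 1657 to 1832 in AKO and 1026 to 1286 in WT and rose (log2 fold 0.63 ± 0.08, adjusted p = 0.00122).

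Insulin signalling genes were divided evenly, with 4 of 41 higher, 4 lower and no other listed, where 2.92% of tested genes rose and 2.27% fell. Akt1, the more widely expressed AKT kinase, had 2889.6, 2952, 2832 and 2879 in AKO, against 1866, 2117, 1960.2 and 1839 in WT (log2 fold 0.57 ± 0.06, adjusted p = 0.000462). Akt2, the AKT kinase required for insulin-stimulated glucose uptake in adipocytes, ranged from 3801 to 4506 in AKO and 4775 to 5796 in WT and fell (log2 fold -0.36 ± 0.08, adjusted p = 0.0352). Eif4ebp1, a translation repressor that insulin inactivates, had 2944, 2791, 2845 and 3009 in AKO, against 3882, 3579.6, 4364 and 3926 in WT (log2 fold -0.44 ± 0.07). The insulin receptor substrates Irs2 and Irs3 rose (log2 fold 1.02 ± 0.23 and 0.34 ± 0.08). The calls of Akt2, Irs2 and Irs3 were each lost without any one of 6 libraries, and that of Irs2 with replicates paired (adjusted p = 0.0583). Grb10 and Slc2a13, described above, are also on this list.

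**Figure D3:**
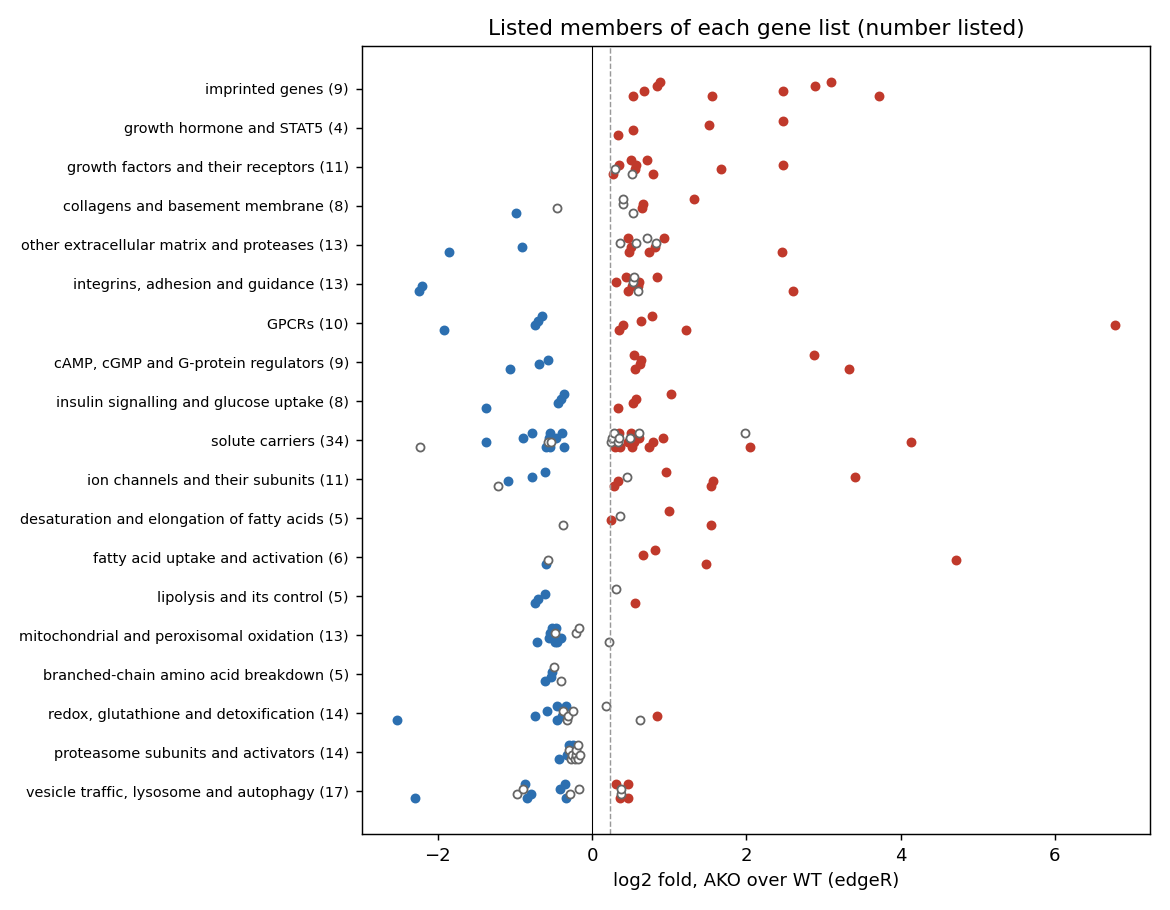
Log2 fold of AKO over WT from edgeR (horizontal axis) for the listed members of 19 gene lists, 1 point per gene, with the number listed in brackets. Red points were called higher, blue points lower and open points not called, and the dashed line is the median of all 1074 listed genes at 0.23: all 9 imprinted genes lie to the right of 0, while 12 of 13 oxidation genes and 14 of 14 proteasome genes lie to its left.

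In fatty acid desaturation and elongation 3 of 18 genes rose and none fell, where 2.92% of tested genes rose. Fads1, the delta-5 desaturase of polyunsaturated fatty acids, had 3639, 3209.8, 3578 and 3664 in AKO, against 1168, 1018, 1463 and 1172 in WT (log2 fold 1.54 ± 0.10, adjusted p = 1.62e-05), and Fads2, the delta-6 desaturase, had 338, 220.3, 239.5 and 269.7 in AKO, against 196, 110.2, 135 and 117 in WT (log2 fold 1.00 ± 0.18). The smaller rise of the elongase gene Elovl5 (log2 fold 0.24 ± 0.06) was lost with replicates paired (adjusted p = 0.0593) and in every fit without 1 library other than that without WT replicate 4. The Acot cluster on chromosome 12 holds thioesterases that free fatty acids from coenzyme A. Acot4 had 148, 135, 116 and 145 in AKO, against 67.1, 33.8, 55.2 and 47.6 in WT and Acot2 had 534, 406, 426 and 394 in AKO, against 260.4, 213, 237 and 292 in WT, and both rose beside Acot3 (log2 fold 1.48 ± 0.18 and 0.82 ± 0.12). These paralogs are alike in sequence, so their reads may be shared. The fatty acid carrier gene Fabp5 ranged from 4563 to 6311 in AKO and 3216 to 4013 in WT and rose, and the lipoprotein receptor gene Vldlr ranged from 859.9 to 1031 in AKO and 1261 to 1734 in WT and fell (log2 fold 0.65 ± 0.11 and -0.60 ± 0.10).

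Of 22 lipogenic genes 3 were listed and 2 fell, where 8.56% of tested genes were listed and 2.27% fell. Srebf1, the transcription factor that drives lipogenic genes, had 3484, 3073, 2641 and 3755 in AKO, against 6622, 5543, 6019.5 and 5445 in WT (log2 fold -0.86 ± 0.11, adjusted p = 0.00142), and the pentose phosphate enzyme gene Taldo1 ranged from 4339 to 5545 in AKO and 6092 to 8526 in WT (log2 fold -0.56 ± 0.11). The call of Taldo1 was lost without AKO replicate 2 or 3 or WT replicate 4. G6pdx, of the same pathway, was above 0, with 3918, 3836, 4354 and 3493 in AKO, against 3246, 2574, 3225 and 3100.5 in WT (log2 fold 0.36 ± 0.09), and did not pass the test (adjusted p = 0.0514), but was called higher with replicates paired (adjusted p = 0.0304). Of 29 lipolysis genes 3 fell and 1 rose, where 2.27% of tested genes fell and 2.92% rose. Pnpla2, which encodes the lipase ATGL of the first step of lipolysis, had 32922, 26981, 25442 and 32418 in AKO, against 50315, 38744, 42240 and 47781 in WT (log2 fold -0.60 ± 0.13, adjusted p = 0.022). Its call was lost without AKO replicate 2 or 3 or WT replicate 1 or 4, and the other lower members are Adora1 and Adrb1. Gnai1, an inhibitory G-alpha gene, rose (log2 fold 0.55 ± 0.13), a call lost without any one of 7 libraries. Of 24 thermogenic genes 4 were listed and 3 fell, where 8.56% of tested genes were listed and 2.27% fell. The amino acid transporter gene Slc36a2, a brown and beige adipocyte marker, fell. It had 2893, 2274, 2539 and 3404 in AKO, against 5036, 5668, 4560.1 and 5402 in WT (log2 fold -0.90 ± 0.12, adjusted p = 0.00202). Kcnk3, a potassium channel of brown adipocytes, ranged from 725 to 902 in AKO and 1029 to 1377 in WT and fell (log2 fold -0.62 ± 0.11). Cpn2, the other lower member, had low counts and lost its call without AKO replicate 2, and is given with the genes of chromosome 16. Lhx8, a homeobox gene of brown adipocytes, was above 0 and overlapped, with 81.6, 155, 97.4 and 156 in AKO, against 59.1, 51.3, 69.0 and 92.9 in WT (log2 fold 0.84 ± 0.26). It was not called (adjusted p = 0.0979) but was called higher with replicates paired (adjusted p = 0.0425) and without AKO replicate 1. The defining uncoupling gene Ucp1 was not among the listed genes.

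Fatty acid oxidation genes that passed the test were all lower in AKO. Of 36 mitochondrial and peroxisomal oxidation genes, 13 were listed, 9 fell and none rose, where 2.27% of tested genes fell. The electron transfer flavoprotein, which passes electrons from the acyl-CoA dehydrogenases to the respiratory chain, was lower in both subunits. Etfa had 4588, 4069, 4188 and 4587 in AKO, against 6886, 6179.5, 5794 and 6863 in WT (log2 fold -0.56 ± 0.08, adjusted p = 0.00286) and Etfb had 4104, 3544, 3818 and 4156 in AKO, against 5568, 5096, 5684 and 6024 in WT (log2 fold -0.52 ± 0.08, adjusted p = 0.00375). Slc25a20, the carnitine-acylcarnitine carrier, ranged from 980.5 to 1149 in AKO and 1302 to 1779.8 in WT and Cpt2, the inner-membrane carnitine transferase, from 2038 to 2502 in AKO and 2731 to 3737 in WT (log2 fold -0.54 ± 0.10 and -0.48 ± 0.12). Acadl, the long-chain acyl-CoA dehydrogenase, had 6304, 4899.6, 4956 and 5481 in AKO, against 10477, 8013, 6619 and 10562 in WT, with WT replicate 3 nearest to AKO (log2 fold -0.72 ± 0.15, adjusted p = 0.0215). Ech1, Decr1 and Eci1, which reshape unsaturated acyl chains, and Hadh, the third step of the cycle, fell with log2 folds of -0.48, -0.47, -0.40 and -0.46. Acadvl (log2 fold -0.47, adjusted p = 0.101), Eci2 (log2 fold -0.21, adjusted p = 0.0647) and Acaa1a (log2 fold -0.18, adjusted p = 0.125) were not called, and the peroxisomal oxidase gene Acox3 was the single member above 0 (log2 fold 0.22, adjusted p = 0.0939). These folds are small, and the number called fell to 4 without AKO replicate 2 or 3 or WT replicate 1 or 4, and was 11 with replicates paired.

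Breakdown of branched-chain amino acids feeds acyl-CoA into the same mitochondrial pathways. Of 18 of its genes, 5 were listed, 3 fell and none rose, where 8.56% of tested genes were listed and 2.27% fell. Mccc2 and Mccc1, the subunits of methylcrotonyl-CoA carboxylase of leucine breakdown, ranged from 1268 to 1620.4 in AKO and 1946 to 2217 in WT, and from 1788 to 2398 in AKO and 2669.7 to 3509.9 in WT (log2 fold -0.52 ± 0.08 and -0.53 ± 0.11). Bcat2, the mitochondrial transaminase of the first step, had 2069.9, 1590.0, 1792 and 2599.9 in AKO, against 2725, 3234, 3073 and 3259 in WT (log2 fold -0.61 ± 0.13, adjusted p = 0.0273). Pccb (log2 fold -0.50, adjusted p = 0.0511) and Bckdha (log2 fold -0.41, adjusted p = 0.0644) were not called. With replicates paired all 5 passed, and without AKO replicate 3 or WT replicate 4 only 1 did. This list and that of the proteasome were drawn up after values were seen. Outside this pathway, Got2, the mitochondrial aspartate transaminase, rose, at 805, 805, 836 and 702 in AKO, against 438, 517, 476 and 440.4 in WT (log2 fold 0.74 ± 0.08, adjusted p = 0.000415), and so did the asparagine synthetase gene Asns (log2 fold 0.37 ± 0.08), a call lost without AKO replicate 3 or 4 or WT replicate 3. Idh2, the NADP-linked mitochondrial isocitrate dehydrogenase, had 1943, 1907, 1889.9 and 1806 in AKO, against 2674, 2594, 2446 and 2391 in WT and fell (log2 fold -0.42 ± 0.06).

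Of 50 proteasome subunits and activators 14 were listed and 5 fell, where 8.56% of tested genes were listed and 2.27% fell. The 14 had log2 folds between -0.42 and -0.16. Psmd4, a ubiquitin receptor of the regulatory particle, had 1921, 1729, 1759.6 and 1811 in AKO, against 2177, 2064, 2222 and 2387 in WT (log2 fold -0.29 ± 0.06, adjusted p = 0.0247), and Psmb6, a catalytic-core subunit, had 1421, 1352, 1394 and 1386 in AKO, against 1530.1, 1609, 1696 and 1773 in WT (log2 fold -0.25 ± 0.06, adjusted p = 0.0333). Psme1, a subunit of the interferon-inducible 11S activator, had 1291, 1300.2, 1300.3 and 1407 in AKO, against 1468, 2079.5, 1761 and 1776 in WT (log2 fold -0.42 ± 0.09, adjusted p = 0.0245). Psma5 and Psmd10 also fell (log2 fold -0.26 ± 0.06 and -0.33 ± 0.08), Psmd10 not with replicates paired (adjusted p = 0.0598). The 9 others had adjusted p from 0.0538 to 0.198. The number called ran from 4 to 14 over the 4 scalings, and it was 0 without AKO replicate 2 or AKO replicate 3.

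**Figure D4:**
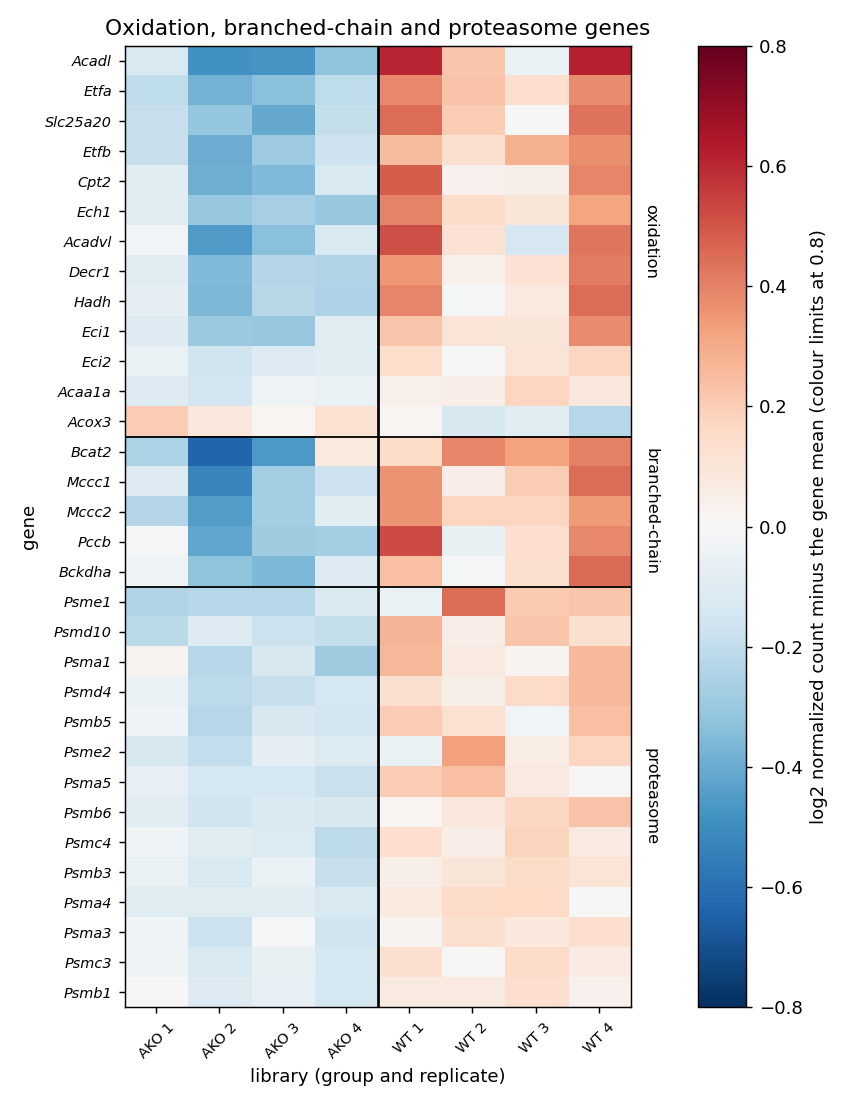
Log2 normalized count minus the gene's mean over the 8 libraries (colour, red above and blue below the mean) for the 13 listed oxidation genes, 5 branched-chain amino acid genes and 14 proteasome genes, AKO libraries at left and WT libraries at right. AKO replicates 2 and 3 are the deepest blue and WT replicates 1 and 4 the deepest red in most oxidation genes.

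Of 57 redox and detoxification genes 14 were listed, 7 fell and 1 rose, where 2.27% of tested genes fell and 2.92% rose. Beside Pon1, the mitochondrial aldehyde dehydrogenase gene Aldh2 had 10586, 8378, 8620.3 and 9626 in AKO, against 14676, 12241, 13153 and 15608 in WT (log2 fold -0.58 ± 0.11, adjusted p = 0.011) and the mitochondrial thioredoxin reductase gene Txnrd2 had 413, 377, 365 and 376 in AKO, against 553, 495, 533 and 522 in WT (log2 fold -0.45 ± 0.07). Sod1, Por, Gsr and Mgst2 fell with log2 folds of -0.40, -0.46, -0.34 and -0.74. The fall of Mgst2 was not called with replicates paired (adjusted p = 0.0548), and without AKO replicate 2 or 3 the number called lower was 3. Mgst3, a microsomal glutathione transferase, went the other way, at 4852, 4980.0, 4812 and 4618 in AKO, against 2744, 2358, 2991 and 2622 in WT (log2 fold 0.85 ± 0.08, adjusted p = 0.00017).

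Among extracellular matrix genes more rose than fell. Of 69 matrix genes and proteases other than collagens, 7 rose and 2 fell, and of 44 collagen and basement membrane genes 3 rose and 1 fell. By comparison, 2.92% of tested genes rose and 2.27% fell. Thbs2, an anti-angiogenic thrombospondin, had 1678, 2149, 1554 and 1907 in AKO, against 765, 1275, 1027 and 727 in WT (log2 fold 0.93 ± 0.17), and Ogn, a small leucine-rich proteoglycan, had 5338, 5215, 4476 and 3785 in AKO, against 2797, 2925, 3355 and 2169.9 in WT (log2 fold 0.74 ± 0.14). Plod2, which hydroxylates collagen lysines, ranged from 371 to 542 in AKO and 219 to 295 in WT (log2 fold 0.81 ± 0.13), and Col12a1, a fibril-associated collagen, from 236 to 442 in AKO and 107 to 195 in WT (log2 fold 1.32 ± 0.24). Col6a1 rose beside Nid1 (log2 fold 0.66 ± 0.13), a call lost without AKO replicate 2 or 3. Cspg4, the proteoglycan NG2 of pericytes, had 1099, 983, 984 and 963 in AKO, against 2199, 1816, 2122 and 1476 in WT and fell (log2 fold -0.91 ± 0.11, adjusted p = 0.00122). Col4a2, Col6a2 and Col4a1 had log2 folds of 0.53, 0.40 and 0.40 and did not pass the test (adjusted p = 0.0514, 0.0702 and 0.138). Between 2 and 5 collagen and basement membrane genes rose in the fits without 1 library. With replicates paired 5 collagen and basement membrane genes rose and none fell, since the laminin gene Lamb3 (log2 fold -0.99 ± 0.23) was no longer called (adjusted p = 0.0662).

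Of 406 annotated solute carriers 34 were listed, 13 rose and 10 fell, and 5 fell without AKO replicate 2 or 3. Among all tested genes 8.56% were listed, 2.92% rose and 2.27% fell, but the number of the 406 that were tested is not known. Slc3a2, the heavy chain of amino acid exchangers, ranged from 2337 to 2684 in AKO and 1570.4 to 1861 in WT and rose (log2 fold 0.54 ± 0.07), as did the mitochondrial ADP/ATP carrier gene Slc25a5 at 6846 to 8515 in AKO and 4947 to 5602 in WT (log2 fold 0.52 ± 0.09). Slc1a3, a glutamate importer, ranged from 2770.3 to 3920.5 in AKO and 4707 to 5395 in WT and fell (log2 fold -0.60 ± 0.10). Among 288 annotated ion channel genes 6 rose and 3 fell, and without AKO replicate 3 only 2 rose. The number of the 288 that were tested is not known either. P2rx5, an ATP-gated channel used as a brown and beige adipocyte marker, had 180.3, 123, 116 and 139.5 in AKO, against 266, 252, 209 and 246 in WT and fell (log2 fold -0.78 ± 0.14).

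Of 492 annotated zinc-finger and Kruppel-like transcription factor genes, 10 rose and 2 fell. How many of the 492 were tested is not known, so these shares are not set against the 2.92% and 2.27% of all tested genes. Zfp949 had 608, 593, 584 and 648 in AKO, against 204, 182, 203 and 242 in WT (log2 fold 1.55 ± 0.09, adjusted p = 5.17e-06) and Zfp704 had 602, 632, 616 and 659.6 in AKO, against 282, 329, 327 and 299 in WT (log2 fold 1.01 ± 0.07, adjusted p = 1.71e-05), both with tight groups. Among nuclear receptors, Esr1, the oestrogen receptor alpha, had 309.6, 365, 357 and 418 in AKO, against 118, 104, 86.2 and 132 in WT (log2 fold 1.74 ± 0.14, adjusted p = 6.91e-05). Ebf1, a factor that promotes adipocyte formation, rose at 432 to 548 in AKO and 238 to 341 in WT (log2 fold 0.74 ± 0.12), while Cebpa was not called (log2 fold -0.24, adjusted p = 0.185). Dbp, a clock output factor, had 1372, 1432, 1312 and 1498 in AKO, against 2915, 2326, 3383 and 2048 in WT and fell (log2 fold -0.92 ± 0.14, adjusted p = 0.00345). It was the single called member of 21 clock genes, and its exons overlap Sphk2. Hoxc8, a homeobox gene of posterior position, had 583, 597, 619 and 635 in AKO, against 913, 693, 1041 and 1047 in WT (log2 fold -0.61 ± 0.12). Ccnd2, a D-type cyclin, had 3072, 2796, 3066 and 3284 in AKO, against 1723, 1476, 1828 and 1435 in WT and rose (log2 fold 0.92 ± 0.09, adjusted p = 0.000264).

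Few markers of other cell types were among the listed genes. Of all tested genes 8.56% were listed, 2.92% rose and 2.27% fell. How many of the markers below were tested is not known, so whether they were fewer than that share cannot be told. None of 20 lymphoid and none of 16 erythroid, granulocyte and mast cell markers was listed. Of 22 macrophage markers 1 was listed, Cd14, at 255 to 338 in AKO and 349 to 441 in WT, and it was not called (adjusted p = 0.0736). Of 20 endothelial and mural markers 2 were listed, Cspg4 and Pecam1, the second not called (log2 fold 0.20, adjusted p = 0.113). Their summed normalized counts ran from 4814 to 5076 in AKO and from 4868 to 5796 in WT. Of 18 muscle markers Acta1 was listed, at 22.2 to 55.5 in AKO and 64.4 to 102 in WT (log2 fold -1.22 ± 0.28), its call lost without any one of 6 libraries. Of 10 mesothelial markers Lrrn4 was listed and rose, at 139, 100.4, 111 and 108 in AKO, against 24.2, 39.3, 40.5 and 36.5 in WT (log2 fold 1.64 ± 0.17, adjusted p = 0.000437). Of 16 fibroblast and progenitor markers Sema3c was listed and not called (adjusted p = 0.0833), and of 20 epithelial and mammary markers only Esr1. Levels of unlisted markers were not analysed here, so the part of cell composition in these results was not tested.

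Genes beside Adipoq on chromosome 16 were examined because the Cre transgene carries an adiponectin promoter fragment. Of 55 such genes 5 were listed, where 8.56% of all tested genes were listed, and how many of the 55 were tested is not known. Eif4a2, a translation helicase gene, had 10347, 9731, 9703 and 10852 in AKO, against 6832, 6656, 6821 and 7488 in WT and rose (log2 fold 0.55 ± 0.07, adjusted p = 0.00194). Cpn2, a carboxypeptidase N subunit, had 4.57, 1.72, 9.21 and 0.715 in AKO, against 40.3, 53.5, 11.2 and 34.3 in WT and fell (log2 fold -3.26 ± 0.64, adjusted p = 0.0151), a call lost without AKO replicate 2. Thpo, which encodes thrombopoietin, ranged from 32.7 to 54.2 in AKO and 66.6 to 85.9 in WT (log2 fold -0.79 ± 0.20, adjusted p = 0.0443), a call lost in every fit without 1 library other than that without AKO replicate 1. Lpp (adjusted p = 0.0711) and Camk2n2 (adjusted p = 0.0785) were not called. The labels do not give the site or the extent of the transgene, and its part in these values was not tested.

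The authors' deposited tables list 790 genes for female inguinal fat, from other mice, and 1488 for perigonadal fat, from the same 8 males. Of the 1074 genes listed here, 290 were also listed in females (27.0% of these and 36.7% of the female list), 200 higher in both, 90 lower in both and none in opposite directions. In perigonadal fat 499 were listed (46.5% of these and 33.5% of the perigonadal list), 253 higher in both and 245 lower in both, and the mice are shared, so this is not independent. The 1 gene in opposite directions was Lrrn4, with a log2 fold of 1.48 in inguinal and -0.91 in perigonadal fat in the authors' deposited tables. For Mfsd7c those tables give 3.86 in male inguinal, 2.65 in female inguinal and 3.06 in perigonadal fat, and for Pon1 -2.37, -1.69 and -1.32. Spon1 has 2.40 in male inguinal and 2.45 in perigonadal fat in the authors' deposited tables and was not listed in females, while Slc5a3 has 1.89 in male and 1.63 in female inguinal fat and was not listed in perigonadal fat. Of the 3 fat tables, Peg3 was listed in that of male inguinal fat alone. Of the 13 oxidation genes, 11 were listed in perigonadal fat, all lower, and 1 in females, Acadl, lower. Whether an effect differs between sexes or depots was not tested.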

How the data were processed

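Per the labels' protocols, RNA was isolated with Trizol and RNeasy columns and made into libraries by the TruSeq Stranded mRNA method. STAR, DESeq2 and mm10 are named in the submitters' processing notes without versions. No source used here names the read counter, its strand setting or the annotation. The deposited count table gives raw read counts of the authors' listed genes in each library. Their deposited comparison tables give means of normalized counts (a signal), log2 folds with SE, and p-values, per the file headers. The headers do not say whether the folds are shrunken. For Mfsd7c the deposited log2 fold was 3.86, against 4.14 in the edgeR fit. It was 2.40 against 2.47 for Spon1, 2.28 against 3.10 for Klf14 and -1.37 against -3.26 for Cpn2. The deposited folds of these genes were thus smaller in size, by most in Cpn2, which had few reads. The 2 scales should not be compared directly.

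The authors' size factors were solved from the counts and deposited means by least squares (largest misfit 1.09e-07%), and the number of genes tested from p and adjusted p. Counts were tested with edgeR 4.0.16 (legacy quasi-likelihood) in R 4.3.3 with these factors as offsets, AKO against WT, no covariate and no filter, Benjamini-Hochberg adjusted over 12554 genes at 0.05. SE is the absolute log2 fold over the square root of F. Dispersion was estimated over selected genes only. DESeq2 1.42.0 and limma 3.58.1 (pseudocount 1) were alternatives. The test was first run on simulated counts with known changes. The authors' own calls used another test, so a listed gene need not be called here.

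Replicate numbers are the labels'. Deviations of same-numbered AKO and WT libraries from their group means correlated across genes at 0.396, 0.304, 0.229 and 0.150. The numbers thus pair the samples by the rule applied (each over 0.1), and pairing was an alternative fit. Differently numbered libraries gave -0.292 to 0.115, and AKO replicate 2 with WT replicate 3 (0.115) was over 0.1 as well. The labels do not say what a number marks. No replicate pair agreed within sampling noise.

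Named genes are the 12 largest rises and 12 largest falls by fold (mean at least 100 normalized counts, no overlap, Gm and Rik symbols left out), the 8 largest of each by absolute change, up to 5 called members of each list by lowest p, and genes that make up small counts. Other members were named after their values were seen. The members and lists were chosen with earlier results of these data known. Some members are not reported here. Symbols are the files', and GENCODE M21 placed 1065 of 1074 genes.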

Additional observations from a re-analysis of the deposited data

Results flagged for a closer look

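In 13 of 510 checks of a named gene within a group of 4 libraries, 1 library stood apart from the other 3 by Dixon's criterion at its 95% critical value. Chance gives about 1 in 20 such flags. Of the AKO libraries, replicate 3 was high for Slc5a3 (5516, the others 3985 to 4168), replicate 1 was high for Cspg4 (1099, the others 963 to 984) and for Gsto1 (1439, the others 1319 to 1335), and replicate 4 was high for Psme1 (1407, the others 1291 to 1300). WT replicate 1, the shallowest library, was low for Net1 (5082, the others 6585 to 6818). It was high for Acot3 (8.05, the others 0 to 1.11), Nr4a2 (96.6, the others 50.9 to 57.8) and Camk2n2 (72.5, the others 38.8 to 44.3). WT replicate 2 was low for Gnai1 (2390, the others 3619 to 3813), Abcb1b (198.6, the others 222.8 to 226.8) and Slc25a4 (2766, the others 3610 to 3775). WT replicate 3 was low for Sik3 (607.7, the others 700.6 to 711.5) and high for Ndn (856, the others 649.5 to 657.7). All values are normalized counts.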

How the results depend on the processing

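No named gene changed direction under any alternative run. All were listed by the authors for a difference in these same libraries, which fixes that outcome in part. Against 366 genes higher and 285 lower, calls moved by over 1.5 times with the median of ratios over the listed genes (485 lower), with DESeq2 (464 lower), with the authors' deposited calls (570 higher, 504 lower), with adjustment over the table's rows alone (569 and 503) and at an adjusted p under 0.01 (160 and 91). Without 1 library, calls ran from 218 to 293 higher and from 132 to 270 lower, and moved by over 1.5 times without AKO replicate 2 (218 and 132), AKO replicate 3 (219 and 142) and WT replicate 4 (160 lower). TMM over the listed genes gave 348 higher and 380 lower, and table totals 427 and 283. The share of calls that were higher was 56.2% in the fit as reported, 47.8% with TMM and 34.6% with the median of ratios. That last method centres on genes selected as changed, so it places the listed genes' own median nearer 0 (log2 fold 0.151, against 0.230). With the replicate block 431 were higher and 341 lower: 607 of the 651 calls were shared and 44 lost. Of named genes, the block lost the calls of Elovl5, Mgst2, Lamb3, Ncam2, Psmd10, Irs2 and Fbln5 and of no other. Of the 203 named genes called, 152 kept their call in all 8 fits without 1 library. Calls rest on 4 mice a group, and low counts limit Gpr179, Acot3, Zim1, Cpn2 and Bdnf most. Thinning to the shallowest library gave 281 higher and 207 lower.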

Other observations

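Of 71 chemokines, cytokines and acute-phase genes, 4 rose and 1 fell, where 2.92% of tested genes rose and 2.27% fell. Cp, the ferroxidase ceruloplasmin, had 6266, 6118, 6124 and 5757 in AKO, against 3731, 3095, 3772 and 3638 in WT (log2 fold 0.77 ± 0.08, adjusted p = 0.000303). The chemokine genes Cxcl9 and Ccl11 ranged from 1572 to 2038 in AKO and 1140.5 to 1303 in WT, and from 1521 to 2019 in AKO and 1053 to 1322 in WT, and both rose (log2 fold 0.58 ± 0.08 and 0.57 ± 0.10). Il15ra, the interleukin-15 receptor alpha chain, ranged from 462 to 583 in AKO and 667 to 937 in WT and fell (log2 fold -0.65 ± 0.11). Orm2, an acute-phase gene with near-identical paralogs, ranged from 32.9 to 56.6 in AKO and 8.05 to 23.2 in WT and rose (log2 fold 1.58 ± 0.29). Of 63 genes of complement, antigen presentation and the interferon response, 4 were listed, 3 fell and none rose. By comparison, 8.56% of tested genes were listed and 2.27% fell. Beside C4b these were the complement factor B gene Cfb, at 3605 to 4225 in AKO and 4418 to 6219 in WT (log2 fold -0.55 ± 0.11, lost without AKO replicate 3), and Tapbp, the peptide-loading chaperone tapasin, at 4459 to 4763 in AKO and 5125 to 5929.6 in WT (log2 fold -0.28 ± 0.07, lost without any one of 7 libraries).

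Signalling genes of other pathways changed singly. Nkd1, an inhibitor of canonical WNT signalling, had 359.9, 465, 497 and 347 in AKO, against 142, 119, 184 and 139 in WT and rose (log2 fold 1.49 ± 0.16, adjusted p = 0.000462). Ltbp2, a latent TGF beta binding protein, had 172, 127, 136 and 139 in AKO, against 381, 283, 232 and 337 in WT and fell (log2 fold -1.07 ± 0.16). Arhgef37, a guanine nucleotide exchange factor gene, had 115, 67.7, 80.3 and 60.1 in AKO, against 8.05, 5.46, 11.2 and 7.75 in WT and rose (log2 fold 3.26 ± 0.32), and the Ras-like gene Rasl12 ranged from 694 to 742 in AKO and 1282 to 1429 in WT and fell (log2 fold -0.92 ± 0.06). Trim6, a ubiquitin ligase gene, had 108, 92.4, 82.9 and 104 in AKO, against 43.0, 22.9, 29.3 and 28.8 in WT and rose (log2 fold 1.73 ± 0.18). Tbc1d16, which inactivates Rab4 on endosomes and slows receptor recycling, had 181, 162, 187 and 164 in AKO, against 289.9, 277, 284 and 341 in WT and fell (log2 fold -0.79 ± 0.10). By chromosome, called genes were 19 higher and 6 lower on X and 9 higher and 19 lower on 17, against 366 and 285 in all, counts given with no test.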
